A study of Mus musculus with 9 samples.

Results

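The RNA of 10 genes of glucose uptake and glycolysis, and the 5-hydroxymethylcytosine (5hmC) over their bodies, were described in macrophages labelled Tet2 KO and in WT macrophages. The genes are the glucose transporter Slc2a1 and the enzyme genes Hk1, Hk2, Pfkp, Aldoa, Gapdh, Pgk1, Eno1, Pkm and Ldha. They were taken by mouse symbol, as 10 of the 47731 genes in the count tables, together with the 8 of 9151 listed 5hmC peaks that overlap their bodies in the mouse build GRCm38. RNA was sequenced in 2 Tet2 KO and 3 WT libraries after removal of ribosomal RNA, and biotin-tagged 5hmC DNA in 2 Tet2 KO and 2 WT libraries. All cells of both genotypes were given M-CSF, the growth factor on which macrophages depend, and were at passage 0. The labels name neither the tissue the macrophages came from, nor the age of the mice, nor the design of the Tet2 allele. Nor do they tell whether each library is an animal or a culture of its own; the p-values therefore reflect the scatter among libraries alone, and that scatter may be technical.

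Glycolysis splits glucose into pyruvate in the cytosol and yields ATP and NADH on the way. Glucose enters through facilitative transporters, is trapped by hexokinase as a phosphate, and is committed to the pathway at phosphofructokinase. The lower enzymes regenerate ATP, and lactate dehydrogenase turns pyruvate into lactate so that NADH is reoxidised. Macrophages are known to raise glucose uptake and lactate output when they are activated by microbial products. 5hmC is the product of TET enzymes, TET2 among them, which oxidise the methyl group of 5-methylcytosine.

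The RNA libraries held 16053426 and 25479447 counts in genes for Tet2 KO, against 17569441 to 56394358 for WT. Over the listed peaks, Tet2 KO had 46230 and 42489 counts of 5hmC reads, against 42678 and 219116 in WT. RNA levels are given below as normalised CPM, counts per 1000000 of the library size after TMM scaling. Tet2 itself was at 227 and 122 normalised CPM in the Tet2 KO libraries, against 103, 136 and 39.1 in the WT libraries (edgeR adjusted p = 0.520), so counts over the whole gene did not check the labels. Of the 2 knock-in features of the gene table, 1 had 1452 and 2245 counts in the Tet2 KO libraries and 0 in all 3 WT libraries. The other had 1 and 3 counts in Tet2 KO, against 0, 6 and 3 in WT, and did not separate them. All directions below rest on the labels. All 10 macrophage markers, among them Adgre1, Csf1r and Cd68, were detected in every library, and 5 of 8 erythroid markers were at 0 in all of them. WT replicate 3 stood apart: its 14 stromal and osteoblast markers summed to 6492 normalised CPM, against 10.4 and 4.97 in the Tet2 KO libraries and 4.70 and 5.00 in the other 2 WT libraries. WT replicate 1 stood apart in its 14 cell cycle genes, which summed to 431 normalised CPM, against 1377 and 2890 in the Tet2 KO libraries and 3457 and 2460 in the other 2 WT libraries. The 10 granulocyte markers summed to 1.52 and 172 normalised CPM in the Tet2 KO libraries, against 155, 10.02 and 2.0 in the WT libraries, with Ly6g at 0 in all. The 8 B cell markers summed to 24.6 and 11.8, against 1.09, 2.78 and 15.2. The part of these other transcripts in the results below was not tested. In bulk RNA, fewer cells of a type and less RNA per cell cannot be told apart.

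Among the 10 genes, the RNA of Hk2 alone separated the genotypes without overlap: it was about 2 times higher in both Tet2 KO libraries than the WT mean. The remaining 9 genes overlapped, and most of their spread lay within genotypes. With edgeR's quasi-likelihood test, 0 of the 10 genes passed an adjusted p of 0.05, against a background of 0.0135% of 14851 tested genes (2 genes). At an unadjusted p of 0.05 the 1 gene that passed was Hk2, against 5.95% of all tested genes with Tet2 KO higher and 13.8% in either direction. With DESeq2, which called 8.15% of all tested genes and 3.37% as higher in Tet2 KO, Hk2 was again the 1 gene called. The fitted level was higher in Tet2 KO for 9 of 10 genes, against 48.4% of all tested genes, and the median log2 fold change was 0.37, against -0.03 over all tested genes. That median depended on single libraries: it was 0.02 without WT replicate 1, 0.05 without Tet2 KO replicate 2 and 0.62 without WT replicate 3. The count of genes that did not overlap, 1 of 10 against a background of 17.2% with Tet2 KO higher, depended on them too; with Tet2 KO lower it was 0, against 19.0%. Without WT replicate 3 it was 6 of 10 (Slc2a1, Hk1, Hk2, Pfkp, Pgk1 and Pkm) against 24.8% of all tested genes. Without Tet2 KO replicate 1 it was 5 of 10 against 26.1%. Without Tet2 KO replicate 2 it was 3 of 10 against 30.5%, and 1 more, Aldoa, was then lower in Tet2 KO, against 31.8%. Without WT replicate 1 or 2 it was 1 of 10, against 21.6% and 24.2%.

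**Figure D1:**
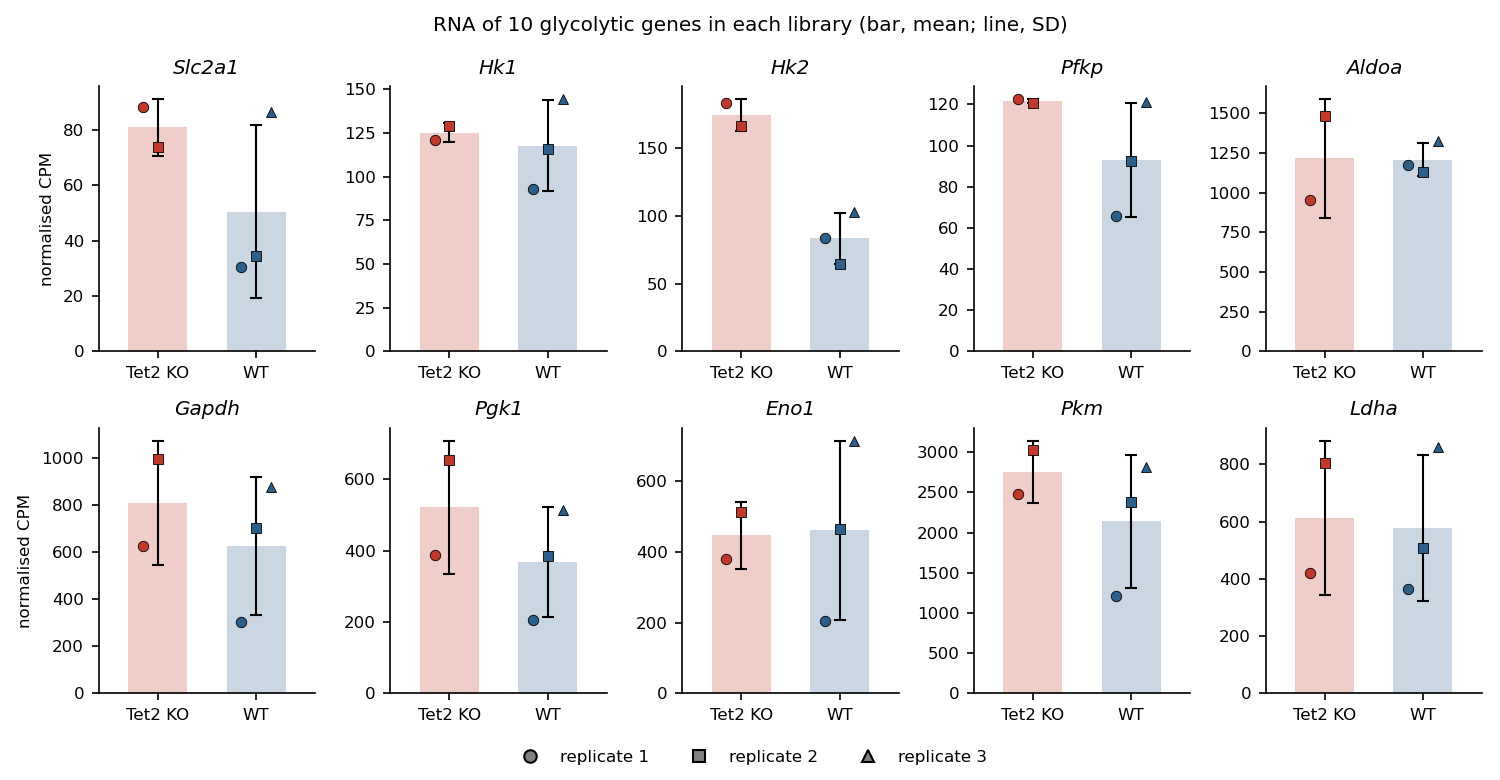
Normalised CPM (vertical axes, starting at 0) of the 10 glycolytic genes in each RNA library, with Tet2 KO on the left and WT on the right of each panel. Bars are means, lines are SD and symbols are replicates (2 Tet2 KO, 3 WT); the Hk2 points of Tet2 KO lie above all WT points, and WT replicate 1 is the lowest point in 8 of the 10 panels.

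Uptake and trapping of glucose were described first. Slc2a1 (ENSMUSG00000028645; chromosome 4, 119108745 to 119137330, plus strand) encodes GLUT1, the facilitative glucose transporter of most cells. It was at 88.3 and 73.7 normalised CPM in the Tet2 KO libraries, against 30.7, 34.3 and 86.4 in the WT libraries. WT replicates 1 and 2 were below both Tet2 KO libraries, and WT replicate 3, the library with the stromal transcripts, was between them. The means were 81.0 ± 10.3 in Tet2 KO (SD, n = 2) and 50.5 ± 31.2 in WT (SD, n = 3), a log2 fold change of 0.68 ± 0.49 (SE; edgeR adjusted p = 0.581). The value depended on single WT libraries: it was 0.37 without WT replicate 1, 0.47 without WT replicate 2 and 1.32 without WT replicate 3, which still missed the threshold (edgeR adjusted p = 0.800, 0.728 and 0.152).

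Hk2 (ENSMUSG00000000628; chromosome 6, 82725025 to 82774454, minus strand) encodes hexokinase 2, the inducible hexokinase that binds mitochondria. Its level was 183 and 166 normalised CPM in the Tet2 KO libraries, against 83.6, 64.9 and 103 in the WT libraries. Both Tet2 KO libraries were above all 3 WT libraries, and WT replicate 2 was the lowest. The means were 175 ± 12.0 in Tet2 KO (SD, n = 2) and 83.7 ± 18.9 in WT (SD, n = 3), a log2 fold change of 1.06 ± 0.25 (SE), or 2.09-fold. edgeR gave an unadjusted p of 0.00666 and an adjusted p of 0.217, so the difference was not called there, while DESeq2 gave a log2 fold change of 1.08 with an adjusted p of 0.0165. With each library left out in turn the log2 fold change stayed between 0.91 and 1.23, with edgeR adjusted p-values of 0.152 to 0.995.

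Hk1 (ENSMUSG00000037012; chromosome 10, 62268855 to 62379920, minus strand) encodes the hexokinase that most tissues use constitutively. It was at 121 and 129 normalised CPM in the Tet2 KO libraries, against 92.7, 116 and 145 in the WT libraries. The Tet2 KO values lay inside the WT range, with a log2 fold change of 0.09 ± 0.25 (SE; edgeR adjusted p = 0.902). The non-coding gene Hk1os, which lies within Hk1, had at most 23 counts in any library, against 1360 to 8685 for Hk1. Whether the counting used strand is not given, so reads of the overlap cannot be told apart.

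Because a ratio of 2 genes within a library needs no scaling, hexokinase 2 was also set against hexokinase 1. The log2 ratio of Hk2 counts to Hk1 counts was 0.60 and 0.36 in the Tet2 KO libraries, against -0.15, -0.84 and -0.50 in the WT libraries. Hk2 counts thus exceeded Hk1 counts in both Tet2 KO libraries and were below them in all 3 WT libraries. The size of such a ratio also depends on transcript length, which was not used here, but the difference between libraries does not. The difference was 0.97, and it stayed between 0.80 and 1.15 with each library left out. An exact permutation test over the 5 libraries, two-sided by doubling the smaller tail, gave p = 0.2. The value was 0.333 after Benjamini-Hochberg adjustment over the 5 ratios computed. With the 10 arrangements of 2 against 3 libraries, 0.2 is the smallest p that this doubling allows.

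The promoters of these genes were searched for short motifs in the 250 bases before each annotated start, on both strands, with sequences of RefSeq on GRCm38.p6. The core of the hypoxia response element, ACGTG, was in the windows of 6 of the 10 genes (Slc2a1, Hk2, Aldoa, Pgk1, Pkm and Ldha), against 18.5% of 27025 genes. The upstream windows of 4 of them are shown because they belong to the transporter, to the gene that separated the genotypes, and to enzymes of the lower pathway and of lactate production. They are written 5′ to 3′ in the direction of the gene, with each ACGTG, or CACGT where it lies on the other strand, in capitals.
Slc2a1, chr4:119108495-119108744, plus strand: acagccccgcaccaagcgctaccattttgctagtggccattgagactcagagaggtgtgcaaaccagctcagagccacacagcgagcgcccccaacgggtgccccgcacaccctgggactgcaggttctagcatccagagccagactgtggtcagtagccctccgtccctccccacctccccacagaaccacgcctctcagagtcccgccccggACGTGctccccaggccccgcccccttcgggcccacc
Hk2, chr6:82774455-82774704, minus strand: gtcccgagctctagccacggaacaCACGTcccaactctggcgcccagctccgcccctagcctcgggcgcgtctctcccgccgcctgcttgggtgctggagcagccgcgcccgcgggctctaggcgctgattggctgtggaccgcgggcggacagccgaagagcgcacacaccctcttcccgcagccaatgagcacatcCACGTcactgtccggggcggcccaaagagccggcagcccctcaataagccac
Pgk1, chrX:106186850-106187099, plus strand: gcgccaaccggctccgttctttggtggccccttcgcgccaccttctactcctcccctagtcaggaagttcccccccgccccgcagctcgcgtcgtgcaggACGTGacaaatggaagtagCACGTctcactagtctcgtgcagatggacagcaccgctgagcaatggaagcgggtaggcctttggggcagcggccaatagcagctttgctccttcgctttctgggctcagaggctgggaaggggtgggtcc
Ldha, chr7:46845554-46845803, plus strand: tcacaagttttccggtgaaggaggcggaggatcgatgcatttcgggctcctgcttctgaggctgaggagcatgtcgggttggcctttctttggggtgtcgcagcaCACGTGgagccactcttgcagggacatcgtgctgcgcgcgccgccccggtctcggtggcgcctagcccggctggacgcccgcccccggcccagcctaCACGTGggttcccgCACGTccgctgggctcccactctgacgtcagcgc
In Slc2a1 the match ended 31 bases before the start, and in Hk2 the 2 matches ended 221 and 47 bases before it. The E-box CACGTG, which contains ACGTG and is known to bind MYC among other factors, was in 1 of the 10 genes, Ldha, against 6.86% of all genes. The RUNX motif TGTGGT was in 3 of 10 (Slc2a1, Hk1 and Pfkp), against 15.9% of all genes, and the GC box GGGCGG in 8 of 10, against 35.4%. A gene counted if any of its windows matched, so a gene with more windows had more chances. The 10 genes had 17 windows, and the 27025 genes had 32851. Those 27025 genes were not matched to the 10 for expression, protein-coding status or GC content, so the shares compare unlike sets. By window, ACGTG was in 7 of 17, against 16.6%, and CACGTG in 1, against 6.02%. TGTGGT was in 3 of 17 windows, against 14.0%, and GGGCGG in 10, against 32.7%. Of the genes with ACGTG in the window, Hk2 separated the genotypes in RNA, while Slc2a1, Aldoa, Pgk1, Pkm and Ldha overlapped, as did the 4 genes without it. A match is a description of letters in the window and not a binding site.

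Pfkp (ENSMUSG00000021196; chromosome 13, 6579874 to 6649060, minus strand) encodes the platelet-type phosphofructokinase, one of the isoforms of the committing step. It was at 122 and 121 normalised CPM in the Tet2 KO libraries, against 65.9, 92.3 and 121 in the WT libraries. The Tet2 KO libraries were close to each other and to WT replicate 3, and above WT replicates 1 and 2. The log2 fold change was 0.38 ± 0.29 (SE; edgeR adjusted p = 0.597), 0.15 without WT replicate 1 and 0.62 without WT replicate 3. Pfkp and Pitrm1 overlap by 285 bases. Set against Pfkl, the liver-type isoform, the log2 ratio of counts was 0.46 and -0.18 in Tet2 KO, against 0.36, 0.42 and -0.51 in WT. These overlapped, with a difference of 0.05 (exact permutation p = 0.8).

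Aldoa (ENSMUSG00000030695; chromosome 7, 126795234 to 126800994, minus strand) encodes aldolase A, which splits fructose bisphosphate into 2 triose phosphates. It was at 952 and 1482 normalised CPM in the Tet2 KO libraries, against 1171, 1127 and 1325 in the WT libraries. The 2 Tet2 KO libraries were the lowest and the highest of all 5, so the log2 fold change of 0.01 ± 0.33 (SE; edgeR adjusted p = 0.990) averages values on both sides of WT. The WT libraries differed by a factor of 1.18, the smallest WT range among the 10 genes.

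Gapdh (ENSMUSG00000057666; chromosome 6, 125161852 to 125166467, minus strand) encodes the dehydrogenase that makes NADH, and was at 624 and 996 normalised CPM in the Tet2 KO libraries, against 304, 703 and 876 in the WT libraries. Pgk1 (ENSMUSG00000062070; chromosome X, 106187100 to 106203699, plus strand) encodes phosphoglycerate kinase, the first step that makes ATP, and was at 389 and 654 in Tet2 KO, against 205, 385 and 514 in WT. In both genes WT replicate 1 was the lowest library and Tet2 KO replicate 2 the highest, and the genotypes overlapped. The log2 fold changes were 0.37 ± 0.51 for Gapdh (edgeR adjusted p = 0.778) and 0.50 ± 0.46 for Pgk1 (SE; edgeR adjusted p = 0.655). Both depended on single libraries. The value of Gapdh was -0.02 without Tet2 KO replicate 2, 0.00099 without WT replicate 1, 0.66 without Tet2 KO replicate 1 and 0.69 without WT replicate 3. That of Pgk1 was 0.07, 0.17, 0.82 and 0.82 without the same libraries.

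Eno1 (ENSMUSG00000063524; chromosome 4, 150236708 to 150248879, plus strand) encodes enolase 1, which forms phosphoenolpyruvate. It was at 378 and 513 normalised CPM in the Tet2 KO libraries, against 205, 464 and 711 in the WT libraries. Both Tet2 KO libraries lay inside the WT range, with a log2 fold change of -0.05 ± 0.54 (SE; edgeR adjusted p = 0.977), the 1 negative value among the 10 genes. Its near-identical copy Eno1b had 582 and 2758 counts in the Tet2 KO libraries, against 16, 167 and 348 in the WT libraries. Eno1b thus held 8.56% and 16.9% of the summed counts of the pair in Tet2 KO, against 0.528%, 0.655% and 0.809% in WT, without overlap between the genotypes (log2 4.37 ± 0.80; edgeR adjusted p = 0.180, DESeq2 adjusted p = 9.86e-06). Reads of the 2 copies may be split between them by the counting, so both values are uncertain. Summed over the pair, the log2 fold change was 0.15 ± 0.55 (edgeR adjusted p = 0.926), which turns the sign. Named copies of Ldha, Pgk1, Aldoa and Gapdh each held under 1% of the counts of their pair in every library.

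Pkm (ENSMUSG00000032294; chromosome 9, 59656576 to 59679372, plus strand) encodes pyruvate kinase, whose PKM1 and PKM2 isoforms come from alternative exons that gene counts do not tell apart. It was at 2480 and 3028 normalised CPM in the Tet2 KO libraries, against 1216, 2380 and 2817 in the WT libraries. WT replicate 1 was well below the other 4 libraries, and the genotypes overlapped through WT replicate 3. The log2 fold change was 0.37 ± 0.46 (SE; edgeR adjusted p = 0.756), 0.20 without Tet2 KO replicate 2, 0.05 without WT replicate 1 and 0.61 without WT replicate 3.

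Ldha (ENSMUSG00000063229; chromosome 7, 46842274 to 46855627, plus strand) encodes lactate dehydrogenase A. It was at 421 and 804 normalised CPM in the Tet2 KO libraries, against 364, 509 and 861 in the WT libraries. The spread within each genotype was about as wide as the range of all 5 libraries, and the log2 fold change was 0.08 ± 0.48 (SE; edgeR adjusted p = 0.954). It was -0.46 without Tet2 KO replicate 2 and 0.49 without WT replicate 3.

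**Figure D2:**
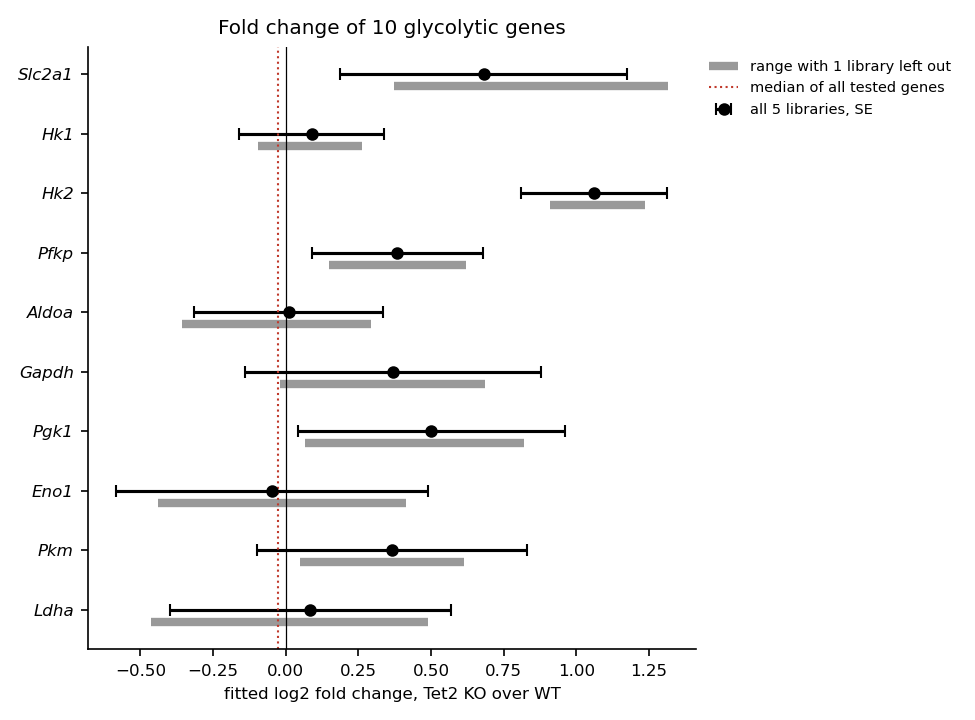
Fitted log2 fold change, Tet2 KO over WT (horizontal axis), of the 10 glycolytic genes in edgeR; points and black bars are the value and SE with all 5 libraries, grey bars the range when 1 library is left out, and the dotted line the median of all tested genes. The grey bar of Hk2 (0.91 to 1.23) has the highest lower end of the 10, and those of Hk1, Aldoa, Gapdh, Eno1 and Ldha cross 0.

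The partner of Ldha, Ldhb, encodes the subunit known to favour the turn of lactate back to pyruvate. It was at 1.03 and 1.97 normalised CPM in the Tet2 KO libraries, against 13.0, 3.75 and 10.9 in the WT libraries. The Tet2 KO libraries were below all 3 WT libraries, with a log2 fold change of -2.60 ± 0.71 (SE; edgeR adjusted p = 0.240). The log2 ratio of Ldha counts to Ldhb counts was 8.67 and 8.67 in the Tet2 KO libraries, against 4.81, 7.08 and 6.30 in the WT libraries. This difference of 2.60 did not overlap and stayed between 1.98 and 3.11 with each library left out (exact permutation p = 0.2, adjusted p = 0.333). The Tet2 KO ratios rested on 17 and 52 counts of Ldhb, and they repeat the lack of overlap of Ldhb itself.

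The same test was made for transporters. The log2 ratio of Slc2a1 to Slc2a6, a transporter of lysosomal membranes, was 1.88 and 1.70 in Tet2 KO, against 1.55, -0.32 and -0.31 in WT. The genotypes did not overlap, with a difference of 1.49 (exact permutation p = 0.2, adjusted p = 0.333), though WT replicate 1 lay close to Tet2 KO. The ratio of the lactate exporter Slc16a3 to the monocarboxylate transporter Slc16a1 was 0.75 and 0.71 in Tet2 KO, against 0.72, 0.34 and 0.93 in WT, which overlapped (difference 0.07; exact permutation p = 1).

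**Figure D3:**
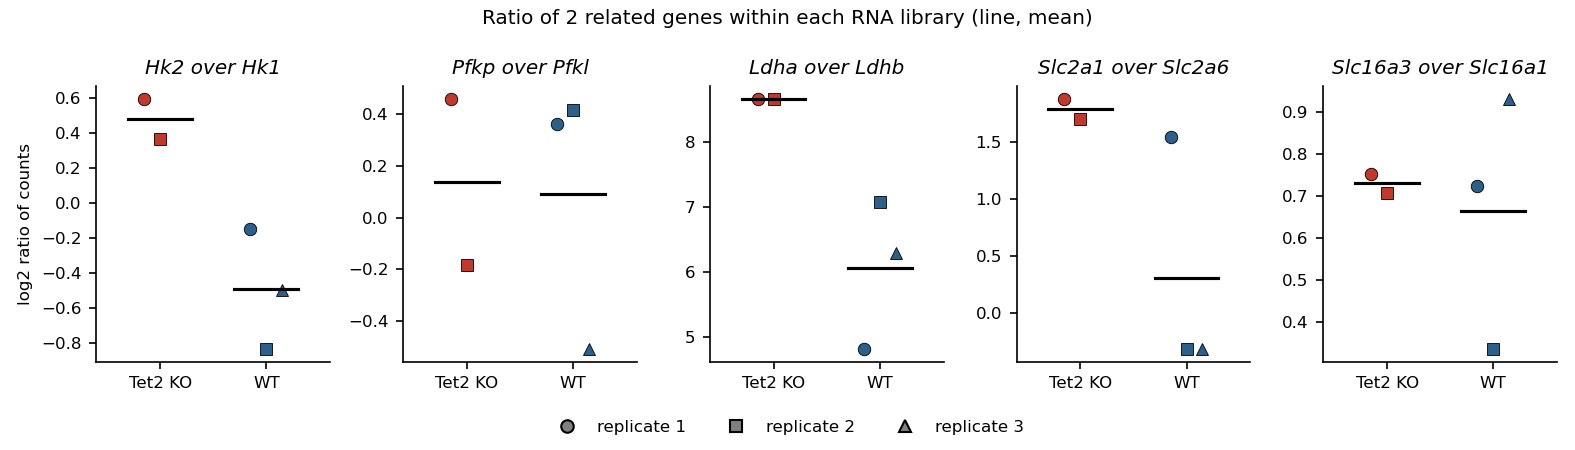
Log2 ratio of the counts of 2 related genes within each RNA library (vertical axes, which do not start at 0), with Tet2 KO on the left and WT on the right; symbols are replicates and lines are means. Hk2 over Hk1, Ldha over Ldhb and Slc2a1 over Slc2a6 do not overlap between genotypes, and Pfkp over Pfkl and Slc16a3 over Slc16a1 do.

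Across the 5 libraries the 10 genes varied together in part. In 8 of the 10 the lowest library was WT replicate 1, against 24.7% of all tested genes; the exceptions were Hk2, lowest in WT replicate 2, and Aldoa, lowest in Tet2 KO replicate 1. The highest library was Tet2 KO replicate 2 for 4 genes, Tet2 KO replicate 1 for 3 and WT replicate 3 for 3. Together the 10 genes took 0.590% and 0.824% of all gene counts in Tet2 KO, against 0.312%, 0.625% and 0.804% in WT. The highest WT level was 1.18 to 3.46 times the lowest, and Tet2 KO replicate 2 was at 0.835 to 1.91 times the level of Tet2 KO replicate 1. WT replicate 1, lowest in most of these genes, was also the library with the lowest sum of cell cycle genes, and WT replicate 3, which reached or passed the Tet2 KO levels in several, the one with stromal transcripts; whether either sets the pattern was not tested.

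Likeness of pattern was measured as the root mean square difference of log2(normalised CPM + 1), centred on each gene's mean over the 5 libraries. Gapdh and Pgk1 were the closest pair, at 0.109, followed by Pkm and Gapdh at 0.160 and by Hk1 and Pfkp at 0.174. Eno1 was nearest to Gapdh (0.214), Aldoa to Hk1 (0.240), Ldha to Pgk1 (0.268) and Slc2a1 to Pfkp (0.362). Hk2 stood apart: its nearest gene was Slc2a1, at 0.393, and it was the farthest gene from 7 of the other 9, up to 0.750 from Eno1. The mean centred profile of the 10 genes was 0.08 and 0.41 in the Tet2 KO libraries, against -0.69, -0.16 and 0.36 in the WT libraries. The 5 other genes nearest to it, among 8574 with a mean of at least 10 CPM, were Cct7 (0.0269), Nme1 (0.0507), Eef1g (0.0534), Abracl (0.0551) and Tcp1 (0.0718), against a median distance of 0.537. Cct7 and Tcp1 encode subunits of the chaperonin that folds actin and tubulin, Nme1 a nucleoside diphosphate kinase, and Eef1g a translation elongation factor.

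**Figure D4:**
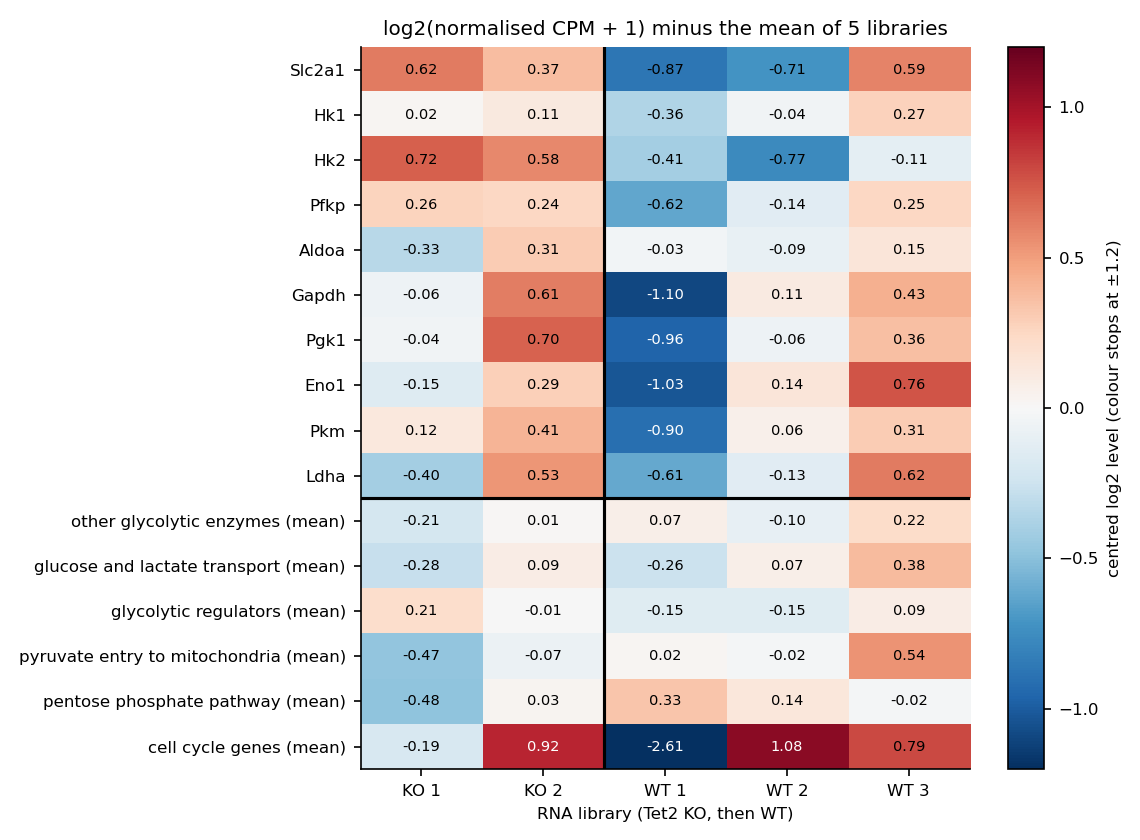
Log2(normalised CPM + 1) minus the mean of the 5 RNA libraries, for the 10 glycolytic genes and for the mean of 6 gene lists; columns are the 2 Tet2 KO libraries, then the 3 WT libraries, and colour stops at ±1.2. The column of WT replicate 1 is negative in all 10 genes, down to -1.10 in Gapdh, and Hk2 is positive in both Tet2 KO columns and negative in all 3 WT columns.

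Fitted levels of the other pathway genes in Tet2 KO lay on both sides of WT. The background for all lists below is the share over all tested genes. In edgeR 13.8% had an unadjusted p under 0.05 in either direction, and DESeq2 called 8.15%. The genotypes did not overlap in 17.2% with Tet2 KO higher and in 19.0% with Tet2 KO lower. Most genes named below were taken by smallest p within their list, which favours genes without overlap. Of 19 other glycolytic enzyme genes 12 were tested, 5 with a higher and 7 with a lower fitted level in Tet2 KO, and their median log2 fold change was -0.38. In edgeR 0 were called and 1 (Ldhb) had an unadjusted p under 0.05; DESeq2 called Ldhb (adjusted p = 0.00709). Gpi1, which isomerises glucose phosphate between Hk2 and phosphofructokinase, was at 502 and 519 normalised CPM in Tet2 KO, against 284, 370 and 426 in WT, without overlap (log2 0.50; edgeR adjusted p = 0.459). Aldoc, the brain-type aldolase, was at 5.84 and 12.6 in Tet2 KO, against 12.4, 18.4 and 37.4 in WT (log2 -1.30; edgeR adjusted p = 0.415).

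Of 9 other glucose and lactate transporter genes, with the chaperone Bsg among them, 8 were tested, 4 higher and 4 lower, with a median of -0.21. In edgeR 0 were called and 3 had an unadjusted p under 0.05; DESeq2 called 2, Slc2a3 and Slc2a8. Slc2a3, the high-affinity transporter GLUT3, was at 20.8 and 21.4 normalised CPM in Tet2 KO, against 10.8, 13.4 and 7.55 in WT. It did not overlap (log2 0.998 ± 0.321; edgeR adjusted p = 0.286), and here WT replicate 3 was the lowest library. Slc2a8, an intracellular sugar transporter, was at 9.01 and 13.0 in Tet2 KO, against 22.1, 22.6 and 25.04 in WT (log2 -1.08 ± 0.28; edgeR adjusted p = 0.233). Slc16a7, a monocarboxylate transporter, was at 9.01 and 16.6 in Tet2 KO, against 42.0, 32.5 and 21.0 in WT (log2 -1.31; edgeR adjusted p = 0.294). Both were below all WT libraries in both Tet2 KO libraries.

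Among 11 regulators of glycolysis 9 were tested, 5 higher and 4 lower, with a median of 0.18; 0 were called in edgeR or DESeq2, and 0 had an unadjusted p under 0.05. Myc, a transcription factor known to act on glycolytic genes, was at 50.6 and 49.6 normalised CPM in Tet2 KO, against 8.38, 16.6 and 40.5 in WT. Both Tet2 KO libraries were above all WT libraries, which ranged widely (log2 1.19 ± 0.64; edgeR adjusted p = 0.465). Tigar, a phosphatase that lowers fructose bisphosphate, was at 20.7 and 19.5, against 13.8, 11.7 and 18.0, also without overlap (log2 0.47; edgeR adjusted p = 0.514). Pfkfb4, which sets the level of the activator fructose 2,6-bisphosphate, overlapped at 35.7 and 37.0, against 72.5, 52.2 and 36.0 (log2 -0.56; edgeR adjusted p = 0.508).

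Of 14 genes for the entry of pyruvate into mitochondria 13 were tested, 3 higher and 10 lower in Tet2 KO, with a median of -0.20. In edgeR 0 were called and 3 had an unadjusted p under 0.05, all lower in Tet2 KO; DESeq2 called 1, Pdp1 (adjusted p = 0.0492). Mpc1, a subunit of the mitochondrial pyruvate carrier, was at 12.4 and 17.2 normalised CPM in Tet2 KO, against 46.5, 20.2 and 34.0 in WT (log2 -1.18; edgeR adjusted p = 0.319). Pdp1, the phosphatase that activates pyruvate dehydrogenase, was at 20.4 and 16.5, against 71.2, 28.8 and 48.1 (log2 -1.42; edgeR adjusted p = 0.268). Pdk2, a kinase that inactivates the same complex, was at 0.548 and 1.56, against 7.09, 4.85 and 2.02 (log2 -2.12; edgeR adjusted p = 0.335). In all 3 the genotypes did not overlap, against 19.0% of all tested genes with Tet2 KO lower, but they were named by smallest p among 13. The Tet2 KO values of Pdk2 rested on 9 and 41 counts. The other tested kinase genes Pdk1 (log2 -0.08) and Pdk3 (log2 -0.46) overlapped between genotypes.

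All 7 genes of the pentose phosphate pathway were tested, 2 higher and 5 lower, with a median of -0.43; 0 were called in edgeR or DESeq2, and 0 had an unadjusted p under 0.05. The dehydrogenase genes G6pdx (136 and 186 in Tet2 KO, against 299, 250 and 178 in WT) and Pgd (147 and 196, against 310, 266 and 185) overlapped through WT replicate 3. Their log2 fold changes were -0.59 and -0.57 (edgeR adjusted p = 0.462 and 0.471). The lactonase gene Pgls was at 42.5 and 61.1, against 82.3, 61.9 and 65.1, which did not overlap by a narrow margin (log2 -0.43; edgeR adjusted p = 0.509).

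5hmC was then read over the bodies of the 10 genes. Of 9151 listed peaks, 8 lay in the bodies of 6 of the 10 genes (Slc2a1, Hk1, Hk2, Aldoa, Pgk1 and Pkm), against 16.6% of 21900 protein-coding genes with a peak. No listed peak overlapped Pfkp, Gapdh, Eno1 or Ldha. By the authors' peak names, 2 of the 8 were called in merged Tet2 KO libraries, 4 in merged WT libraries and 2 in both, so the name of a peak already favours 1 direction. Fold changes and calls of peaks named from 1 genotype are therefore descriptions and no independent test. Among all listed peaks called in Tet2 KO, 92.1% had both Tet2 KO libraries above both WT libraries, and among those called in WT, 60.4% had them below. Among those called in both, 43.9% had Tet2 KO above and 9.52% below. The 2 Tet2 KO libraries differed by less than sampling noise and were counted as 1 sample. Counts per peak were low, and intervals and floors on them cover counting error only. Exons and introns were not used here, so positions are given as distance from the gene's start.

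The peak with the most Tet2 KO signal lay in Aldoa (chr7:126797343-126797749, 3448 bases after the start). It held 17 and 19 counts in the Tet2 KO libraries, against 4 and 19 in the WT libraries, which is 36.8 and 44.7 per 100000 listed-peak counts, against 9.37 and 8.67. Both Tet2 KO libraries were well above both WT libraries. The fitted log2 fold change was 2.27 ± 0.63 (SE), 1.48 with the Tet2 KO libraries as 2 samples, and 1.75 to 2.16 with each library left out. Of the 2 peaks of these gene bodies that passed the filter on low counts, edgeR called this 1, against 18.0% of 859 tested peaks called as higher and 19.8% called in either direction. The authors had called the peak on Tet2 KO reads alone, and it passed the filter mostly through them, so nothing is read from that call. A second Tet2 KO peak lay outside the gene, with its centre at -1699 bases from the start (chr7:126802551-126802836), with 11 and 9 counts in Tet2 KO, against 2 and 22 in WT (23.8 and 21.2 per 100000, against 4.69 and 10.04). The RNA of Aldoa had a log2 fold change near 0. Both peaks were called in Tet2 KO, which already favours their direction, so no contrast with the RNA is drawn.

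In Pkm a peak called in Tet2 KO lay 22592 bases after the start, close to the end of the gene (chr9:59679047-59679289). It held 11 and 8 counts in the Tet2 KO libraries, against 1 and 2 in the WT libraries, or 23.8 and 18.8 per 100000, against 2.34 and 0.913. Both WT counts were at or below the floor of 3 counts, so the size of the fold is not measured. It did not pass the filter on low counts. With a filter of at least 10 summed counts edgeR called it together with the Aldoa peak, 2 of the 8 peaks in these bodies, against 4.50% of 9092 peaks called as higher and 4.78% in either direction; it passed that filter through its Tet2 KO counts, and nothing is read from that call. A second Pkm peak, called in WT (chr9:59661162-59661741, 4875 bases after the start), went the other way, with 6.49 and 4.71 per 100000 in Tet2 KO, against 9.37 and 14.6 in WT. It rested on 3 and 2 counts, against 4 and 32.

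The Slc2a1 peak (chr4:119111958-119112363, 3415 bases after the start) was called in both genotypes and was at 17.3 and 16.5 per 100000 in Tet2 KO, against 18.7 and 16.9 in WT, with overlap. It rested on 8 and 7 counts, against 8 and 37, and with a filter of at least 10 summed counts its log2 fold change was 0.52 ± 0.58 (SE; edgeR adjusted p = 0.728). The Hk2 peak (chr6:82766363-82766694, 7926 bases after the start), called in WT, was at 4.33 and 9.41 per 100000 in Tet2 KO, against 9.37 and 13.2 in WT, which overlapped and rested on 2 and 4 counts, against 4 and 29. Neither of these peaks separated the genotypes.

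Hk1 held 2 peaks. The one called in both genotypes (chr10:62299852-62300361) was at 15.1 and 21.2 per 100000 in Tet2 KO, against 25.8 and 18.7 in WT, with overlap (log2 -0.08; edgeR adjusted p = 0.926). The one called in WT (chr10:62323695-62324224) was at 4.33 and 11.8, against 18.7 and 19.6, without overlap. The Pgk1 peak (chrX:106197511-106197831), also called in WT, held 1 and 0 counts in Tet2 KO, against 4 and 16 in WT, or 2.16 and 0 per 100000, against 9.37 and 7.30; a count of 0 in Tet2 KO replicate 2 allows up to 7.06. Beside Gapdh, 221 bases past its end, a peak called in WT (chr6:125160899-125161631) was at 10.8 and 23.5 per 100000 in Tet2 KO, against 23.4 and 29.7 in WT (log2 -0.57; edgeR adjusted p = 0.479). Its log2 fold change was -1.46 with the Tet2 KO libraries as 2 samples, past the edgeR threshold (adjusted p = 0.00487), for a peak named from WT alone. With a replicate block as well, it was -1.26 (edgeR adjusted p = 0.0171). These fits enter the Tet2 KO libraries as replicates, though they differed by less than sampling noise. The log2 fold change was -1.27 without WT replicate 1, a fit that leaves 1 WT library.

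Summed over the 8 peaks, the 10 gene bodies held 110 and 127 per 100000 listed-peak counts in the Tet2 KO libraries, against 103 and 99.9 in the WT libraries. The sum moves with which peaks were listed, and the bodies differed among themselves: Aldoa alone held 36.8 and 44.7, against 9.37 and 8.67, and Hk1 held 19.5 and 32.9, against 44.5 and 38.3.

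**Figure D5:**
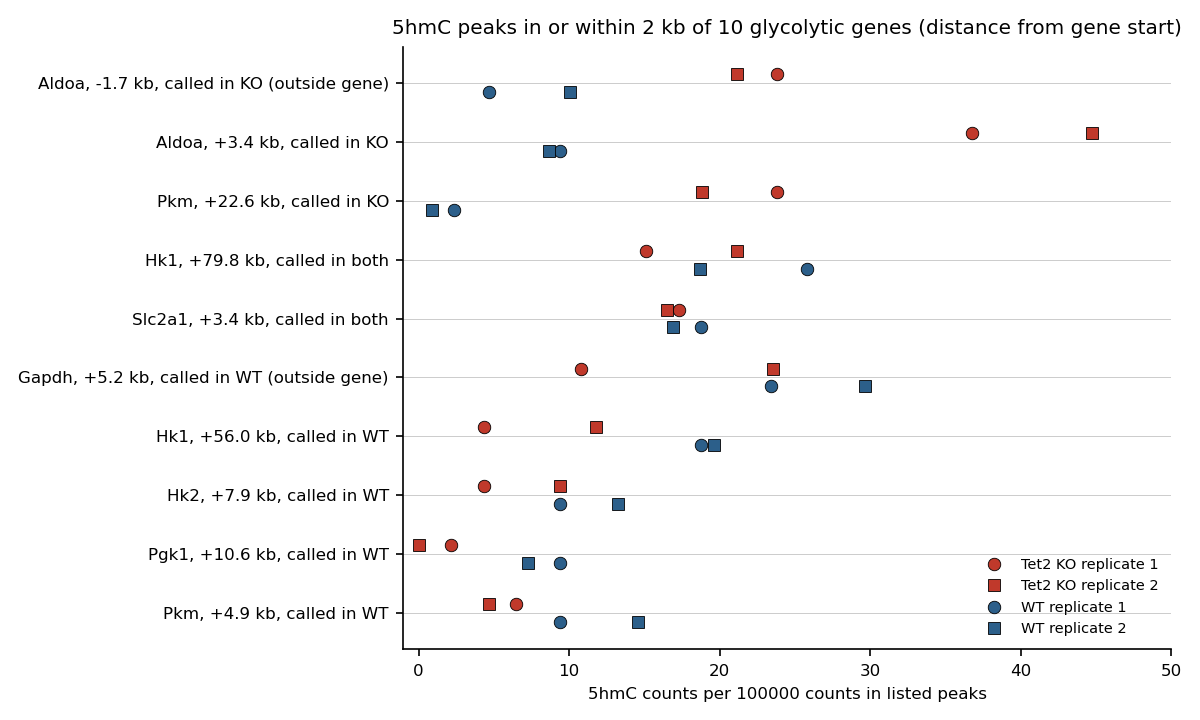
5hmC counts per 100000 counts in listed peaks (horizontal axis) for the 10 peaks in or within 2 kb of the glycolytic genes, ordered by the genotype in which the authors called them; red symbols are the 2 Tet2 KO libraries and blue symbols the 2 WT libraries. The Aldoa peak at 36.8 and 44.7 in Tet2 KO, against 9.37 and 8.67 in WT, is the farthest to the right.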

How the data were processed

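The authors deposited raw counts for both assays, by gene for RNA and by listed peak for 5hmC. Tools in the submitters' processing notes are HTSeq, STAR, BWA, MACS2, Trim Galore and CASAVA 1.4, with the build GRCm38; what each did, the strand setting and the annotation release are not stated there. The deposited peak names show that the authors called peaks on merged libraries of 1 genotype. Groups came from the submitters' labels. Symbols were matched for 47224 of 47731 genes, and positions, promoters and biotypes came from RefSeq tables of the same build.

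Each assay was fitted over its whole table with edgeR 4.0.16 in R 4.3.3 (two-sided quasi-likelihood test after filterByExpr and TMM scaling, with Benjamini-Hochberg adjusted p under 0.05 as the call), and the rows of the 10 genes were read from that fit. SE is the log2 fold change divided by the square root of F. The 2 Tet2 KO 5hmC libraries (2544 peaks, chi-square 0.575 per degree of freedom, against 1.20 for WT) were entered as 1 sample. That sample was the rounded mean of their counts, so the spread comes from the 2 WT libraries. With a WT 5hmC library left out, 1 WT library remained. The spread could then come only from the Tet2 KO libraries, entered as 2 samples. Ratios were tested with exact permutation tests. Motifs were searched in the 250 bases before a start; the plan had named whole windows of 300 bases, in which ACGTG was in 8 of 10 genes, against 21.8% of all genes, CACGTG in 1 (8.09%), TGTGGT in 4 (18.9%) and GGGCGG in 8 (38.2%). Alternatives were DESeq2 1.42.0, limma-voom (limma 3.58.1), other scalings and filters, a replicate block and leaving out each library; summing copies, and counting overlap without each library, were chosen after seeing the data. The steps were tested on simulated data.

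The 10 genes and the gene lists were chosen with earlier results of these data known. All 10 genes were named, with up to 3 genes of each pathway list by smallest p among those with a mean of at least 1 CPM. Peak sequences were not used here.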

Additional observations from a re-analysis of the deposited data

How the results depend on the processing

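Of 140 comparisons of a gene's log2 fold change with an alternative (14 for each of the 10 genes), 125 kept direction and side of the threshold, 14 changed sign and 1 passed it (Hk2 in DESeq2). Called RNA genes numbered 2 in edgeR with TMM, 1211 in DESeq2, 1 in limma-voom, 0 with total counts and 0 to 0 with a library left out; among the 10 genes the count was 0, 1 in DESeq2, and 0 to 0 with a library left out. All changed signs belonged to values that were not called: Aldoa was at -0.033 in limma-voom and -0.013 with no filter, and Eno1 at 0.20 in limma-voom and 0.15 summed with its copy. With a library left out, Hk1 ranged from -0.094 to 0.26, Aldoa from -0.36 to 0.29, Gapdh from -0.019 to 0.69, Eno1 from -0.44 to 0.41, Ldha from -0.46 to 0.49, Slc2a1 from 0.37 to 1.32, Pfkp from 0.15 to 0.62, Pgk1 from 0.07 to 0.82 and Pkm from 0.05 to 0.61. Genes without overlap ranged from 1 to 6. The log2 ratio difference ranged from -0.27 to 0.37 for Pfkp over Pfkl and from -0.10 to 0.20 for Slc16a3 over Slc16a1. Of 70 list medians under an alternative, 8 moved by more than the spread between replicates. The cause of these shifts was not tested.

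Whether the replicate numbers pair the RNA libraries could not be decided. The correlation of deviations was 0.096 for number 1 and -0.073 for number 2 over 14851 genes. The deviations of the 2 Tet2 KO libraries mirror each other (0.073 and -0.073 with WT replicate 2), so these values are not separate checks. With the replicate number as a block 0 genes were called, all 10 genes were higher in Tet2 KO (median 0.66), Hk2 was at 1.25 (edgeR adjusted p = 0.282) and Eno1 at 0.51. WT replicate 3 is alone under its number, so it adds nothing to the genotype difference in this fit. Left out without a block, it gave a median of 0.62, with Hk2 at 1.23 and Eno1 at 0.41. The block fit is therefore no separate check of pairing. In 5hmC, 170 peaks were called, against 303 with the Tet2 KO libraries as 2 samples, 258 with those and a replicate block, 63 in DESeq2, 435 with at least 10 summed counts and 197 to 503 with a library left out. Called peaks in these gene bodies numbered 1, 2 with at least 10 summed counts and 1 to 2 with a library left out. DESeq2 gave no adjusted p for the Aldoa peak. The Hk1 peak called in both genotypes turned sign in DESeq2 (0.033, without an adjusted p), with RLE scaling (0.11) and with at least 10 summed counts (0.31). With 2 against 3 RNA libraries, and at most 19 counts per Tet2 KO library in any of these peaks, small differences were not detectable.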
